A study of Homo sapiens with 12 samples.

Results

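The genes described here are 10 components of the NF-kB system: the subunits NFKB1, NFKB2, RELA and RELB, the inhibitors NFKBIA, NFKBIB, NFKBIE and NFKBIZ, and the feedback genes TNFAIP3 and BIRC3. They were chosen by name from the gene column of the count table, which holds 57773 genes, and the rule uses no measured value, although the members were picked with earlier results of these data known. All 10 were among the 17532 genes that had enough reads to be tested. RNA was sequenced from A549, an established line of human lung adenocarcinoma cells, harvested 72 h after they were reverse transfected with 50 nM of siRNA in Lipofectamine RNAiMAX. The groups were a non-targeting control siRNA, siGOLM1-1 and siGOLM1-2, with 4 libraries each, and all 3 groups therefore carry a transfected siRNA at the same dose. Both siGOLM1 siRNAs are directed against GOLM1, which encodes a Golgi membrane protein. The labels call the libraries of a group biological replicates without saying how the cultures were separated, so p-values measure the spread between these libraries.

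NF-kB factors are dimers of Rel-family proteins that bind kB motifs in DNA. In resting cells the inhibitor of kB (IkB) proteins hold them in the cytoplasm; signals from cytokine or pattern-recognition receptors activate the IkB kinase (IKK) complex, IkB is degraded and the dimers enter the nucleus. A slower, non-canonical route processes the NFKB2 precursor so that its product can pair with RELB. Several components are themselves targets of the pathway, among them NFKBIA, TNFAIP3 and BIRC3, and such transcripts are commonly read as feedback in epithelial cells.

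Library totals ran from 41.6 M to 71.3 M counts, and the members had between 292 and 7504 counts in a library. Levels are given as CPM, counts scaled to library size with TMM factors, and differences as log2 fold changes with their standard error (SE) from an edgeR quasi-likelihood fit of all 12 libraries; a call means an adjusted p under 0.05 by the Benjamini-Hochberg method over all 17532 genes. GOLM1 was at 344.5 to 378 CPM in the control, 37.5 to 38.9 CPM with siGOLM1-1 and 44.6 to 53.4 CPM with siGOLM1-2. All 9 epithelial and A549 markers were detected, and their summed level was 15831 to 20265 CPM. They ranged from EPCAM at 3.02 to 6.28 CPM to ALDH1A1 at 4556 to 10871 CPM, with KRT8 at 1636 to 4438 CPM. Of the 9, 3 were called higher and 3 lower with siGOLM1-1, beside 47.5% of all genes in either direction. With siGOLM1-2, 2 were called higher and 1 lower, beside 45.0% of all genes. Of 9 markers of other cell types, PTPRC, CD3E, MS4A1, CD68 and VWF were at 0.142 CPM or less in every library and PDGFRB reached 0.342 CPM. The monocyte marker CD14 was at 6.70 to 15.2 CPM and was called higher with both siRNAs (0.85 and 0.74), and the collagen genes COL1A1 and COL3A1 were at 21.3 to 92.8 CPM and 0.32 to 7.58 CPM. The 9 markers summed to 40.6 to 80.1 CPM in the control, 63.9 to 108 CPM with siGOLM1-1 and 36.8 to 49.6 CPM with siGOLM1-2, and their part in the results was not tested. In these bulk samples, fewer cells expressing a gene and less of its RNA per cell cannot be told apart. The control libraries fell into pairs, and siGOLM1-2 replicate 4 lay above its group for several members. For the members, values with and without these libraries are given beside several results. The lists of other pathway genes were tested with all 12 libraries only.

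With siGOLM1-1, RELB, NFKB2, NFKB1 and NFKBIZ rose against the control and RELA fell, so that 4 members were called higher, 1 lower and 5 not called. Over all genes tested, 23.7% were called higher and 23.8% lower in that comparison, 47.5% in either direction. Libraries did not overlap between the groups for 4 of the 10, 3 of them higher and 1 lower, beside 41.0% of all genes (20.6% higher, 20.4% lower). The median log2 fold change of the 10 was 0.18, and that of all genes tested was -0.01. With siGOLM1-2, RELB, NFKBIE, NFKB2, BIRC3, NFKB1 and NFKBIB rose and NFKBIZ fell, 6 called higher, 1 lower and 3 not called. Of all genes tested, 21.8% were called higher with this siRNA and 23.2% lower, 45.0% in either direction. The same 7 calls were those whose libraries did not overlap with the control, beside 45.9% of all genes (22.6% higher, 23.3% lower). The median of the 10 was 0.54 and that of all genes -0.01. Both comparisons use the same control libraries, so their values stand side by side and do not support each other.

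**Figure D1:**
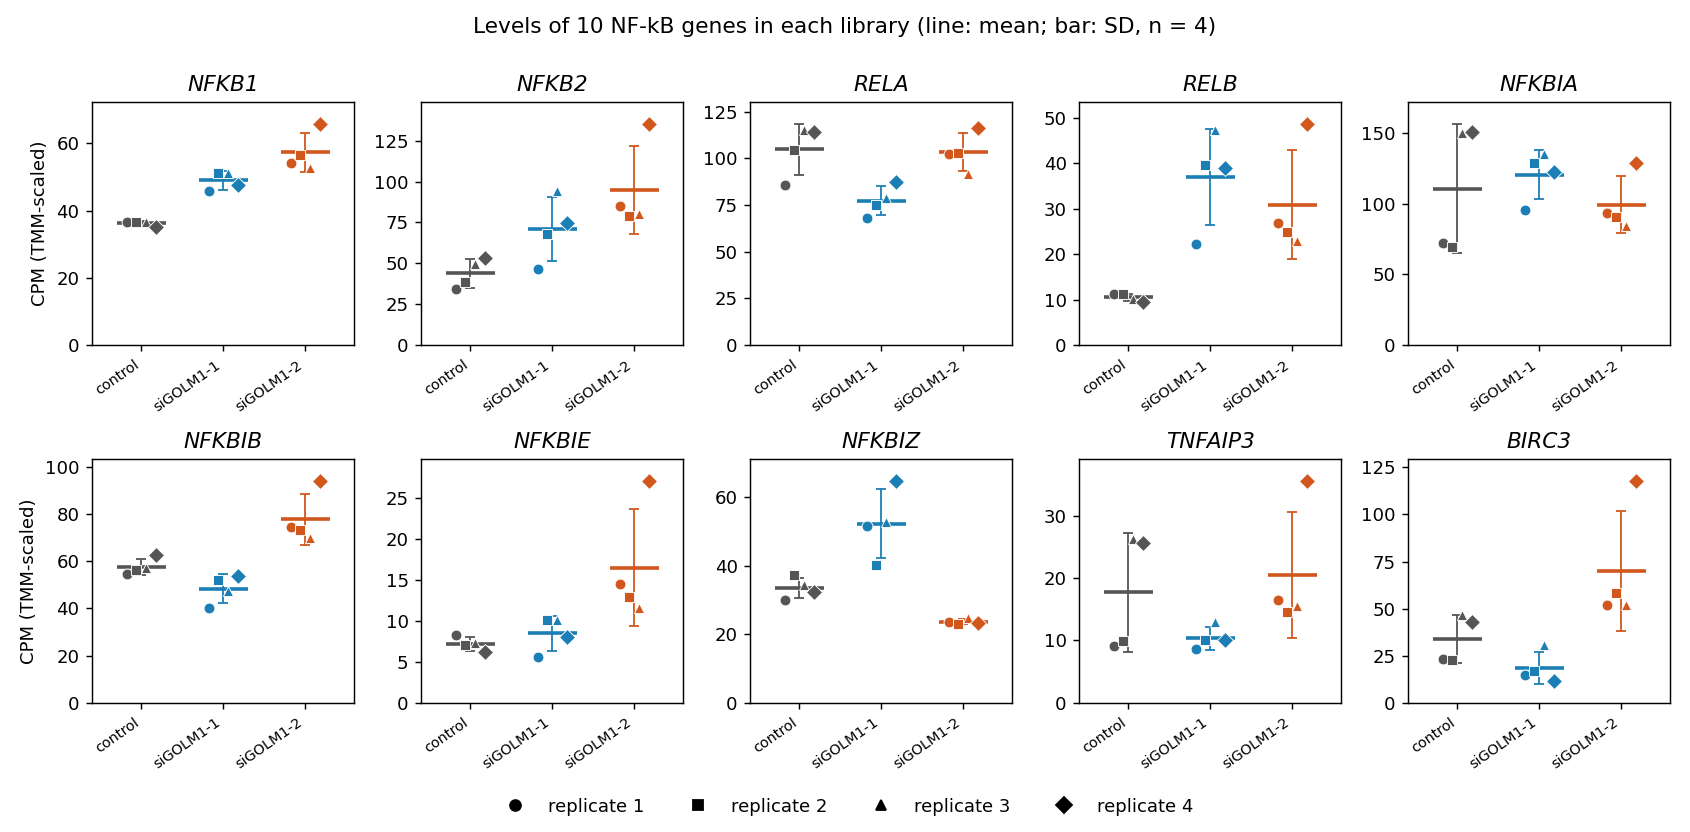
CPM (TMM-scaled, vertical axis from 0) of the 10 genes in the 12 libraries, by group, with the replicate number as the symbol, the mean as a line and the SD (n = 4) as a bar. RELB is above every control library in all 8 siGOLM1 libraries, NFKBIZ lies on opposite sides of the control with the 2 siRNAs, and NFKBIA, TNFAIP3 and BIRC3 split the control into replicates 1 and 2 against replicates 3 and 4.

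The siRNAs also differed from each other. Compared directly, 6 members were lower with siGOLM1-1 than with siGOLM1-2 (NFKB1, RELA, NFKBIB, NFKBIE, TNFAIP3 and BIRC3), 1 was higher (NFKBIZ) and 3 were not called (NFKB2, RELB and NFKBIA). Of all genes tested, 26.5% were called lower and 27.9% higher in this comparison, 54.4% in either direction. The 7 called members were again those whose libraries did not overlap between the siRNAs, beside 48.4% of all genes (24.2% lower, 24.2% higher). The median of the 10 was -0.42 and that of all genes 0.01. This comparison uses no control library.

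**Figure D2:**
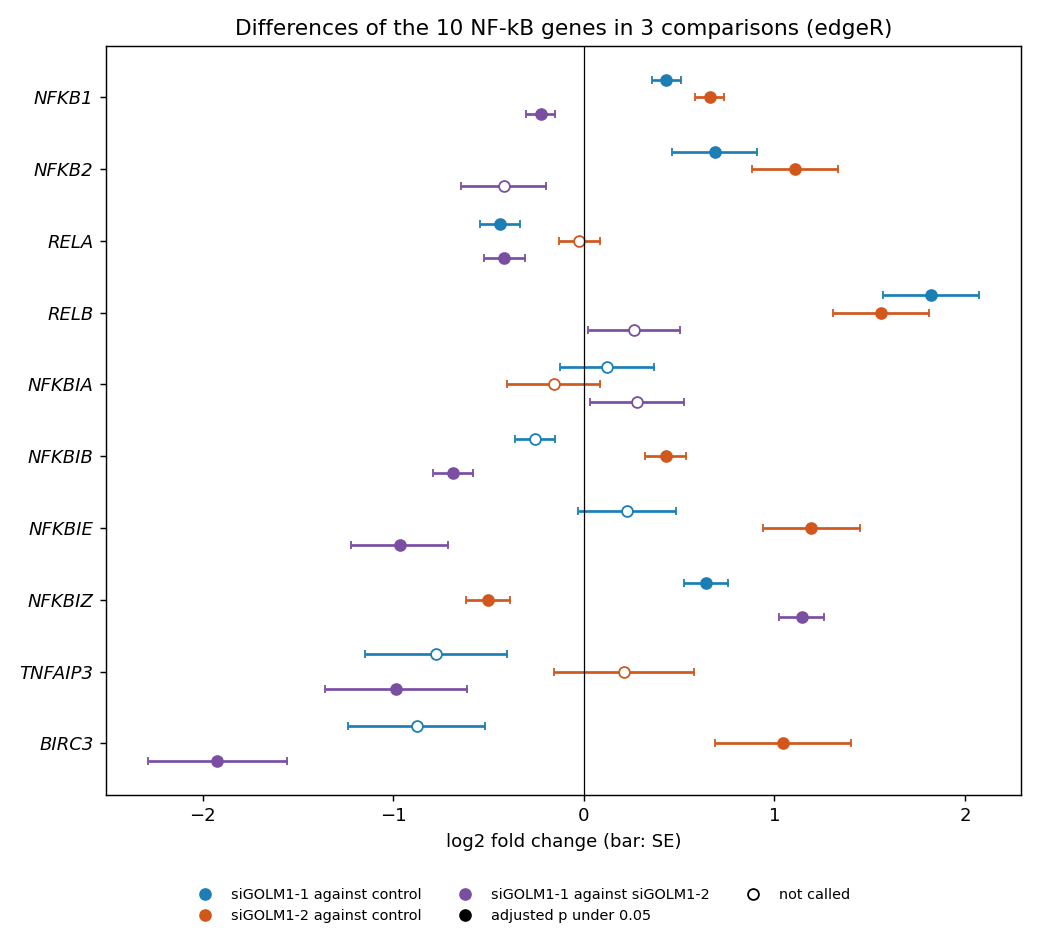
Log2 fold change (horizontal axis, bar: SE, n = 4 libraries per group) of each gene for siGOLM1-1 against control, siGOLM1-2 against control and siGOLM1-1 against siGOLM1-2; filled points had an edgeR adjusted p under 0.05. RELB has the largest difference from the 4 control libraries with each siRNA (1.82 and 1.56), and BIRC3 the largest between the siRNAs (-1.92).

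RELB (ENSG00000104856), the subunit of the non-canonical dimer, had the largest rise of the 10 with each siRNA against all 4 control libraries; against control replicates 1 and 2 alone, BIRC3 was at 1.61 with siGOLM1-2 and RELB at 1.47. It was at 11.1, 11.1, 10.1 and 9.52 CPM in control replicates 1 to 4. With siGOLM1-1 it was at 22.2, 39.7, 47.2 and 39.0 CPM, and with siGOLM1-2 at 26.8, 25.0, 23.0 and 48.7 CPM. Every siGOLM1 library was above every control library, siGOLM1-1 replicate 1 being the lowest of its group and siGOLM1-2 replicate 4 the highest. Means were 10.5 ± 0.81 CPM in the control, 37.0 ± 10.6 CPM with siGOLM1-1 and 30.9 ± 11.99 CPM with siGOLM1-2 (SD, n = 4). The rise was 3.53-fold with siGOLM1-1 (log2 1.82, SE 0.25, edgeR adjusted p = 6.71e-05) and 2.95-fold with siGOLM1-2 (log2 1.56, SE 0.25, edgeR adjusted p = 0.00026). The difference between the siRNAs was 0.26 on the log2 scale (95% interval -0.28 to 0.81) and was not called, but without siGOLM1-2 replicate 4 it was 0.57 and called (edgeR adjusted p = 0.0232). Against the control, RELB was called under each of the 21 alternatives run for it, at 1.68 to 2.00 with siGOLM1-1 and 1.25 to 1.68 with siGOLM1-2.

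NFKB2 (ENSG00000077150), which encodes p100, the precursor of the p52 partner of RELB, was at 34.2, 38.9, 49.5 and 53.3 CPM in the control. It was at 46.8, 67.9, 94.5 and 74.4 CPM with siGOLM1-1 and at 85.3, 78.7, 79.9 and 135 CPM with siGOLM1-2. All libraries with siGOLM1-2 lay above the control, replicate 4 far above the other 3, whereas siGOLM1-1 replicate 1 lay within the control range. NFKB2 rose 2.16-fold with siGOLM1-2 (log2 1.11, SE 0.22, edgeR adjusted p = 0.00139) and remained called without replicate 4 (0.89, edgeR adjusted p = 0.00403). With siGOLM1-1 it rose 1.61-fold (log2 0.69, SE 0.22, edgeR adjusted p = 0.022). That call was lost against control replicates 3 and 4 alone (0.47, edgeR adjusted p = 0.184), without control replicate 1 (0.0653) or 2 (0.0555), and without siGOLM1-1 replicate 3 (0.0789) or 4 (0.0537). The siRNAs differed by -0.42 (siGOLM1-1 minus siGOLM1-2, 95% interval -0.92 to 0.08), which was not called.

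NFKB1 (ENSG00000109320) encodes p105 and its product p50, the partner of RELA in the canonical dimer. Its level was the most even of the 10 within the control, at 36.8, 36.6, 36.5 and 35.3 CPM. It was at 45.8, 51.3, 51.2 and 47.8 CPM with siGOLM1-1 and at 54.3, 56.5, 52.6 and 65.9 CPM with siGOLM1-2. The 3 groups did not overlap, with the control lowest and siGOLM1-2 highest. The rise was 1.35-fold with siGOLM1-1 (log2 0.43, SE 0.08, edgeR adjusted p = 0.000376) and 1.58-fold with siGOLM1-2 (log2 0.66, SE 0.08, edgeR adjusted p = 1.4e-05), and both calls held under all 21 alternatives. The difference between the siRNAs, -0.23 (SE 0.08, edgeR adjusted p = 0.0207), was no longer called without siGOLM1-2 replicate 4 (-0.15, edgeR adjusted p = 0.0674) or without siGOLM1-1 replicate 1 (0.056).

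RELA (ENSG00000173039), the p65 subunit with the transactivation domain, was the only subunit of the 4 among the members that did not rise with either siRNA. It was at 85.7, 104.6, 115 and 114 CPM in the control, at 68.3, 75.2, 78.8 and 87.6 CPM with siGOLM1-1 and at 102, 103, 91.6 and 116 CPM with siGOLM1-2. Of the siGOLM1-1 libraries, 3 lay below every control library and replicate 4 above control replicate 1; 3 of the siGOLM1-2 libraries lay among the controls and replicate 4 just above the highest of them. RELA was 1.36-fold lower with siGOLM1-1 (log2 -0.44, SE 0.11, edgeR adjusted p = 0.00376), a call lost against control replicates 1 and 2 alone (-0.30, edgeR adjusted p = 0.0651). With siGOLM1-2 the difference was -0.02 (95% interval -0.26 to 0.22). The direct difference of -0.42 (SE 0.11, edgeR adjusted p = 0.00435) was called, with no overlap of libraries. Against all 4 control libraries, RELB, NFKB2 and NFKB1 thus moved in the opposite direction to RELA with siGOLM1-1, each past the test. Against control replicates 3 and 4 alone, NFKB2 was not called (0.47, edgeR adjusted p = 0.184).

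To show the sequences that NF-kB dimers could meet at these genes, RefSeq promoter windows (GRCh38.p14, 250 bases before to 50 bases after a start site) were searched for the kB motif GGGNNTTTCC on both strands (GGAAANNCCC when it lies opposite to the gene). The counts were made on another build, and the coordinates serve only to place the sequences. Windows were found for 8 members (14 windows), and the set searched held none for RELB and NFKBIE. A match was held by 8 windows of 7 members, beside 671 of 35116 windows (1.91%) and 635 of 27305 genes (2.33%) in all. RELA had no match in its windows. The matches of the subunit genes are shown with up to 30 bases on each side, 5′ to 3′ along the gene, with the motif in capitals. In NFKB1 it begins 49 bases before the start site and in NFKB2 78 and 21 bases before its start sites.
NFKB1, chr4:102501280-102501349, plus strand: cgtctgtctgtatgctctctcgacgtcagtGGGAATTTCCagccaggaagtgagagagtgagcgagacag
NFKB2, chr10:102394470-102394539, plus strand: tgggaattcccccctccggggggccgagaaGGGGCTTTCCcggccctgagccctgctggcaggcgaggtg
NFKB2, chr10:102395654-102395723, plus strand: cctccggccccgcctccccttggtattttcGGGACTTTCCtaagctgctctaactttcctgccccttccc
A match describes these letters and is not evidence of binding.

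Of the inhibitors, NFKBIZ (ENSG00000144802) was called with both siRNAs in opposite directions. It encodes an atypical, nuclear IkB protein that acts as a cofactor for a subset of NF-kB targets. NFKBIZ was at 30.04, 37.2, 34.4 and 32.5 CPM in the control, at 51.6, 40.1, 52.8 and 64.6 CPM with siGOLM1-1 and at 23.5, 23.0, 24.9 and 23.3 CPM with siGOLM1-2. The 3 groups did not overlap, siGOLM1-2 lowest and siGOLM1-1 highest, and the siGOLM1-2 libraries were the closest together (SD 0.83 CPM). NFKBIZ rose 1.56-fold with siGOLM1-1 (log2 0.64, SE 0.12, edgeR adjusted p = 0.0005) and was 1.42-fold lower with siGOLM1-2 (log2 -0.50, SE 0.12, edgeR adjusted p = 0.00333). The siRNAs differed by 1.14 (SE 0.12, edgeR adjusted p = 2.48e-06), 2.21-fold. It was called against the control in these directions under all 21 alternatives, at 0.52 to 0.75 and -0.55 to -0.42, and it was the only member for which siGOLM1-2 replicate 4 was not the highest library of its group.

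NFKBIE (ENSG00000146232), the IkB epsilon gene, was at 8.25, 7.02, 7.26 and 6.24 CPM in the control. Levels were 5.58, 10.1, 10.0 and 8.03 CPM with siGOLM1-1 and 14.4, 12.9, 11.5 and 27.0 CPM with siGOLM1-2. The siGOLM1-2 libraries lay above all others, and those of siGOLM1-1 lay on both sides of the control. NFKBIE rose 2.29-fold with siGOLM1-2 (log2 1.19, SE 0.26, edgeR adjusted p = 0.00205), and without replicate 4 it remained called at 0.85 (edgeR adjusted p = 0.00221). With siGOLM1-1 the difference was 0.23 (95% interval -0.35 to 0.81) and not called. The direct difference was -0.97 (SE 0.25, edgeR adjusted p = 0.00579).

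NFKBIB (ENSG00000104825), which encodes IkB beta, was at 54.8, 56.5, 57.3 and 62.6 CPM in the control. Levels were 40.4, 52.2, 47.4 and 53.9 CPM with siGOLM1-1 and 74.5, 73.2, 69.8 and 94.0 CPM with siGOLM1-2. The 3 groups did not overlap, with siGOLM1-1 lowest and siGOLM1-2 highest. It rose 1.35-fold with siGOLM1-2 (log2 0.43, SE 0.11, edgeR adjusted p = 0.00464). With siGOLM1-1 the difference of -0.26 (SE 0.11) missed the threshold (edgeR adjusted p = 0.0621) and passed it under 5 of 21 alternatives. The siRNAs differed by -0.68 (SE 0.11, edgeR adjusted p = 9.9e-05). In GENCODE release 29, 40 of the 2324 exon bases of NFKBIB overlap SIRT2 on the opposite strand; the strand setting of the counting was not given in the sources used here, so reads of that stretch cannot be assigned. The same holds for 95 of 5051 exon bases of TNFAIP3 and 9 of 5464 of RELA.

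NFKBIA (ENSG00000100906), the IkB alpha gene and a standard early target of the pathway, was not called in any comparison. It was at 72.3, 69.8, 150.1 and 151 CPM in the control, at 96.0, 129, 135 and 122 CPM with siGOLM1-1 and at 93.3, 91.0, 84.0 and 129 CPM with siGOLM1-2. All 8 siGOLM1 libraries lay between the control pairs. The differences were 0.12 with siGOLM1-1 (SE 0.25, 95% interval -0.43 to 0.68) and -0.16 with siGOLM1-2 (SE 0.25, 95% interval -0.71 to 0.40). Against control replicates 1 and 2 alone NFKBIA was called higher with both siRNAs (0.77, edgeR adjusted p = 0.00369, and 0.48, edgeR adjusted p = 0.0415). Against replicates 3 and 4 alone it was at -0.31 with siGOLM1-1 (edgeR adjusted p = 0.147) and called lower with siGOLM1-2 (-0.58, edgeR adjusted p = 0.012).

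Matches to the kB motif in the promoter windows of the inhibitor genes are given for the same reason and in the same form. The motif lies opposite to the gene in NFKBIA and begins 81 bases before the start site in NFKBIA, 28 in NFKBIB and 223 in NFKBIZ.
NFKBIA, chr14:35404791-35404860, minus strand: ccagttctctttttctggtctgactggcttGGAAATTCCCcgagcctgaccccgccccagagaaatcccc
NFKBIB, chr19:38899911-38899980, plus strand: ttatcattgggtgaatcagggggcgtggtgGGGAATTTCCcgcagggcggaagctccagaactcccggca
NFKBIZ, chr3:101827740-101827806, plus strand: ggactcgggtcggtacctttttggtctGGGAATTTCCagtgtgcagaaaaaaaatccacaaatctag
The match of NFKBIB and that of NFKBIZ are the same 10 letters as in NFKB1, GGGAATTTCC, and that of NFKBIA is their reverse complement. NFKBIB and NFKBIZ, with the same letters, were called in opposite directions with siGOLM1-2. Any part of the motif in these changes was not tested.

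TNFAIP3 (ENSG00000118503) encodes A20, a ubiquitin-editing enzyme that shuts off signalling to IKK. It was at 9.09, 9.88, 26.3 and 25.7 CPM in the control, at 8.56, 10.0, 12.9 and 10.0 CPM with siGOLM1-1 and at 16.4, 14.5, 15.5 and 35.6 CPM with siGOLM1-2. Control replicates 3 and 4 and siGOLM1-2 replicate 4 were the 3 highest libraries. TNFAIP3 was not called with siGOLM1-1 (-0.77, SE 0.37, edgeR adjusted p = 0.104) or with siGOLM1-2 (0.21, SE 0.37, edgeR adjusted p = 0.672). Against control replicates 1 and 2 alone the values were 0.13 (edgeR adjusted p = 0.782) and 1.11 (edgeR adjusted p = 0.0257), and against replicates 3 and 4 alone -1.31 (edgeR adjusted p = 0.00536) and -0.32 (edgeR adjusted p = 0.437). Without control replicate 1, TNFAIP3 was called lower with siGOLM1-1 (-0.99, edgeR adjusted p = 0.0401). It was lower with siGOLM1-1 than with siGOLM1-2 (-0.98, SE 0.37, edgeR adjusted p = 0.0391), with no overlap; without siGOLM1-2 replicate 4 the value was -0.58 and not called (edgeR adjusted p = 0.183), and the call was also lost without siGOLM1-1 replicate 1 (0.118), 2 (0.0847) or 4 (0.0858).

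BIRC3 (ENSG00000023445) encodes cIAP2, a ubiquitin ligase of TNF receptor complexes and an inhibitor of apoptosis. It was at 23.3, 22.6, 46.8 and 42.8 CPM in the control. Levels were 14.7, 17.0, 30.8 and 11.3 CPM with siGOLM1-1 and 51.7, 58.4, 52.0 and 118 CPM with siGOLM1-2. Every siGOLM1-2 library was above every control and siGOLM1-1 library, and 3 siGOLM1-1 libraries were below every control. The rise with siGOLM1-2 was 2.06-fold (log2 1.05, SE 0.36, edgeR adjusted p = 0.0291). It was not called without siGOLM1-2 replicate 4 (0.67, edgeR adjusted p = 0.125), against control replicates 3 and 4 alone (0.66, edgeR adjusted p = 0.215), or without control replicate 1 (0.0772), control replicate 2 (0.0741) or siGOLM1-1 replicate 1 (0.0506). Against control replicates 1 and 2 alone it was larger, 1.61 (edgeR adjusted p = 0.0128). The difference of -0.88 with siGOLM1-1 (SE 0.36, edgeR adjusted p = 0.0606) missed the threshold. It passed under 6 alternatives: library totals alone, control replicates 3 and 4 alone (-1.27, edgeR adjusted p = 0.02), and without control replicate 1 or 2, siGOLM1-1 replicate 3 (-1.24, edgeR adjusted p = 0.0127) or siGOLM1-2 replicate 4. Between the siRNAs BIRC3 differed 3.79-fold (-1.92, SE 0.37, edgeR adjusted p = 0.000652), and this call held under all 21 alternatives, at -2.28 to -1.55.

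The motif matches of the feedback genes lie opposite to the genes. TNFAIP3 has a pair of them, beginning 67 and 55 bases before the start site, and that of BIRC3 begins 199 bases before it.
TNFAIP3, chr6:137867162-137867243, plus strand: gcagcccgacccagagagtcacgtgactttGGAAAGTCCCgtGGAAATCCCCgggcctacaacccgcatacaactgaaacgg
BIRC3, chr11:102317255-102317324, plus strand: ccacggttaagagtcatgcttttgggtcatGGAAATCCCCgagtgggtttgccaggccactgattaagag
TNFAIP3 and BIRC3 share the letters GGAAATCCCC.

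Some members followed the division of the controls. The mean of control replicates 3 and 4 over that of replicates 1 and 2 was 2.74 for TNFAIP3, 2.12 for NFKBIA, 1.95 for BIRC3, 1.41 for NFKB2 and 1.21 for RELA. Both replicates 3 and 4 were above both replicates 1 and 2 for 6 members (those 5 and NFKBIB), beside 32.5% of all genes, and both were below for NFKB1 and RELB, beside 32.9%. For NFKB1, RELB and NFKBIZ, the members called with both siRNAs whichever control pair was used, the ratio was 0.98, 0.88 and 1.00. It was 1.08 for NFKBIB and 0.88 for NFKBIE. Of 9 listed glucocorticoid-responsive genes, 7 averaged higher in control replicates 3 and 4, and SGK1 (35.7 and 25.7 CPM) and CRISPLD2 (2.12 and 1.497 CPM) lower. Summed over the 9 genes, these transcripts were at 264 to 265 CPM in replicates 1 and 2 and at 935 to 949 CPM in replicates 3 and 4, beside 343 to 404 CPM with siGOLM1-1 and 241 to 268 CPM with siGOLM1-2. FKBP5, for example, averaged 22.7 and 223 CPM in the control pairs. Their part in the values of the members was not tested. These counts of library order were chosen after the values were seen.

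**Figure D3:**
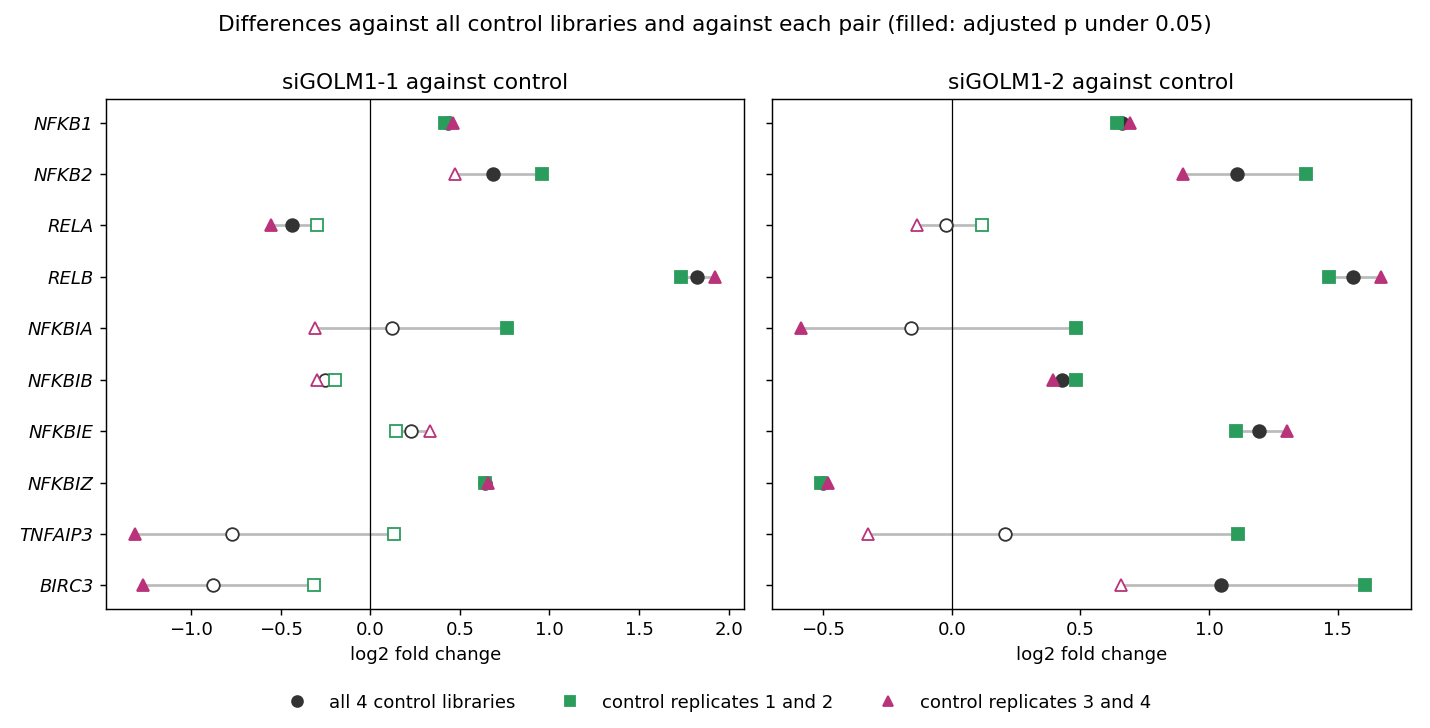
Log2 fold change of each gene with siGOLM1-1 (left) and siGOLM1-2 (right) against all 4 control libraries (circles), control replicates 1 and 2 alone (squares) and replicates 3 and 4 alone (triangles), filled where the edgeR adjusted p was under 0.05. NFKB1, RELB and NFKBIZ keep their direction and stay filled for all 3 symbols with both siRNAs, whereas NFKBIA crosses 0 with both, from 0.77 to -0.31 and from 0.48 to -0.58.

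Within the siGOLM1-2 group, replicate 4 was the highest library for 9 members, beside 39.6% of all genes. It was at least 1.5 times each of the other 3 for 5 members (NFKB2, RELB, NFKBIE, TNFAIP3 and BIRC3), beside 3.75% of all genes. Over the mean of replicates 1 to 3 its level was 2.30-fold for TNFAIP3, 2.18-fold for BIRC3, 2.08-fold for NFKBIE, 1.95-fold for RELB and 1.67-fold for NFKB2, against 1.21-fold for NFKB1, 1.17-fold for RELA and 0.98-fold for NFKBIZ. Of 5 targets read by library, IL6 was at 17.4 CPM in replicate 4 and 2.43 to 3.71 CPM in the others, and ICAM1 at 8.49 CPM and 3.22 to 3.82 CPM. CCL5 (7.75 CPM, the others 4.66 to 5.66 CPM) and CXCL1 (12.98 CPM, the others 8.75 to 9.44 CPM) were higher there by less, and IL8 was at 13.4 CPM beside 12.6 to 13.1 CPM. The lowest siGOLM1-1 library was replicate 1 for 8 members, beside 34.1% of all genes. These counts too were chosen after the values were seen.

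Levels between genes were compared per kilobase of GENCODE release 29 exon sequence. In the control, NFKBIA was highest (46.7 ± 19.4 CPM per kb, SD, n = 4), followed by NFKBIB (24.9 ± 1.46), RELA (19.2 ± 2.50) and NFKB2 (9.81 ± 1.99), and these neighbours did not overlap. From NFKB1 (5.80 ± 0.11) downwards through NFKBIZ, BIRC3, TNFAIP3, RELB and NFKBIE (2.79 ± 0.32), each neighbour in level overlapped the next. RELB was at 3.45 CPM per kb, the ninth of the 10. With siGOLM1-1 RELB was at 12.2 CPM per kb, the fifth level, beside NFKB2 at 15.8 and RELA at 14.2, and the libraries of these 3 overlapped in turn. With siGOLM1-2 it was at 10.2 CPM per kb, again the fifth, below NFKB2 at 21.2 and RELA at 18.9. NFKBIZ was the sixth in level with siGOLM1-1 (8.86 CPM per kb) and the last with siGOLM1-2 (4.01 CPM per kb).

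Profiles most like those of the members were sought over the 12 libraries among 11197 genes, by the root mean square difference of log2 CPM around each gene's mean. The closest by this measure were TRIM21 for NFKBIB (0.04), SNHG6 for NFKB1 (0.06), SAP30BP for RELA (0.07) and SPSB1 for NFKBIA (0.08). Genes that vary little can have smaller differences. The members' own spread on this scale was 0.25 for RELA and 0.28 for NFKB1, beside 0.85 for RELB and 0.93 for BIRC3. IRAK1, a kinase that signals to NF-kB from interleukin-1 and Toll-like receptors, was the next closest to NFKBIB (0.06). RELB was closest to GALNT9 (0.17) and SPHK1 (0.21), NFKB2 to COL6A1 (0.17), NFKBIE to P2RY6 (0.16), NFKBIZ to INTS1 (0.13) and TNFAIP3 to STARD13 (0.15). BIRC3 had the least similar nearest gene, LAMB3 at 0.35. No member was among the 2 nearest genes of another.

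The rest of the pathway was described from lists of named genes. The list of other subunits and IkB-like proteins held 5 genes, REL, BCL3, NFKBID, NKRF and COMMD1, not all of them of those classes. It had 0 calls by edgeR with siGOLM1-1 (1 at an unadjusted p under 0.05 and 0 by DESeq2). The median log2 fold change there was -0.06, with REL at 0.20. With siGOLM1-2, 2 were called lower (median -0.32). Those 2 were COMMD1, which promotes RELA turnover (-0.52, edgeR adjusted p = 0.000585), and the atypical IkB gene BCL3 (-0.33, edgeR adjusted p = 0.0391). Of 15 receptors, 7 were higher and 2 lower with siGOLM1-1 (median 0.30) and 3 higher and 1 lower with siGOLM1-2 (median 0.23). IL1RAP, the accessory chain of the interleukin-1 receptor, was at 6.71 CPM in the control and 27.1 CPM with siGOLM1-1 (2.02, edgeR adjusted p = 9.34e-09), and 7.78 CPM with siGOLM1-2, not called (0.21). IL1R1, the signalling chain, rose with both (0.99 and 0.45). TLR4 fell with siGOLM1-1 (-0.61) and was not called with siGOLM1-2 (0.30). TNFRSF10B, a TRAIL receptor, rose with siGOLM1-2 (0.56) and was not called with siGOLM1-1 (-0.04). The low-level TNFRSF1B rose with siGOLM1-1 (1.74) and siGOLM1-2 (2.90).

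Of 21 adaptors and ubiquitin ligases, 8 were higher and 4 lower with siGOLM1-1 (median 0.10) and 9 higher and 3 lower with siGOLM1-2 (median 0.25). FBXW11, the beta-TrCP2 subunit that marks phosphorylated IkB for degradation, fell with both (-0.84 and -0.84), while its paralog BTRC rose with both (0.65 and 0.46). XIAP, an inhibitor of apoptosis, rose with siGOLM1-1 (0.85) and siGOLM1-2 (0.77), as did the scaffold gene CARD10 (0.32 and 0.72). BIRC2, the paralog of BIRC3 that encodes cIAP1, fell with siGOLM1-2 (-0.76, edgeR adjusted p = 1.46e-05), where BIRC3 rose, and was at 0.01 with siGOLM1-1. The list of the IKK complex and upstream kinases held 17 genes, some of them adaptors or regulatory subunits. Of these, 2 were higher and 3 lower with siGOLM1-1 (median -0.09) and 6 higher and 2 lower with siGOLM1-2 (median 0.17). CHUK, the IKK alpha subunit that the non-canonical route needs, was at 48.7 CPM in the control and 25.5 CPM with siGOLM1-2 (-0.93, edgeR adjusted p = 1.29e-05), and at 45.8 CPM with siGOLM1-1 (-0.09, not called). MAP3K3 and TAB3, an adaptor of TAK1, rose with siGOLM1-2 (0.87 and 0.58) and were not called with siGOLM1-1 (-0.09 and 0.12). MAP3K7, which encodes TAK1, rose with siGOLM1-1 (0.43) and was not called with siGOLM1-2 (0.0047). MAP3K8 rose with siGOLM1-1 (0.65) and fell with siGOLM1-2 (-0.65). IRAK4 fell with siGOLM1-1 (-0.39) and rose with siGOLM1-2 (0.48).

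Of 17 deubiquitinases and other negative regulators, 8 were higher and 1 lower with siGOLM1-1 (median 0.32), with RNF11 at 0.51, ZC3H12A at 0.69 and SIGIRR at 0.72. With siGOLM1-2, 8 were higher and 3 lower (median 0.13), with NLRC5 at 0.91, N4BP1 at -0.62 and TNIP3, a low-level transcript, at 2.14. ZC3H12A fell (-0.30) and SIGIRR rose (0.54) with siGOLM1-2, where RNF11 was not called (0.13). N4BP1 (0.43) and TNIP3 (1.00) rose with siGOLM1-1, where NLRC5 was not called (-0.08). Of 33 target genes tested, 15 were higher and 2 lower with siGOLM1-1 (median 0.58) and 19 higher and 3 lower with siGOLM1-2 (median 0.60). The summed level of the 38 listed targets in the table was 1899 to 2163 CPM in the control, 2353 to 2946 CPM with siGOLM1-1 and 2666 to 3468 CPM with siGOLM1-2, the highest being siGOLM1-2 replicate 4. EFNA1 (1.45), LCN2 (1.68) and TNFAIP2 (1.11) led by p with siGOLM1-1. CCL5 (4.79), CXCL5 (2.62, from 63.2 to 389.7 CPM) and PLAU, which fell (-1.15), led with siGOLM1-2. TNFAIP2 also rose with siGOLM1-2 (0.60), where EFNA1 (0.18) and LCN2 (0.32) were not called. PLAU rose with siGOLM1-1 (1.27), where CCL5 (-0.13) and CXCL5 (0.32) were not called. Over all genes tested, 23.7% were higher and 23.8% lower with siGOLM1-1, and 21.8% higher and 23.2% lower with siGOLM1-2.

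**Figure D4:**
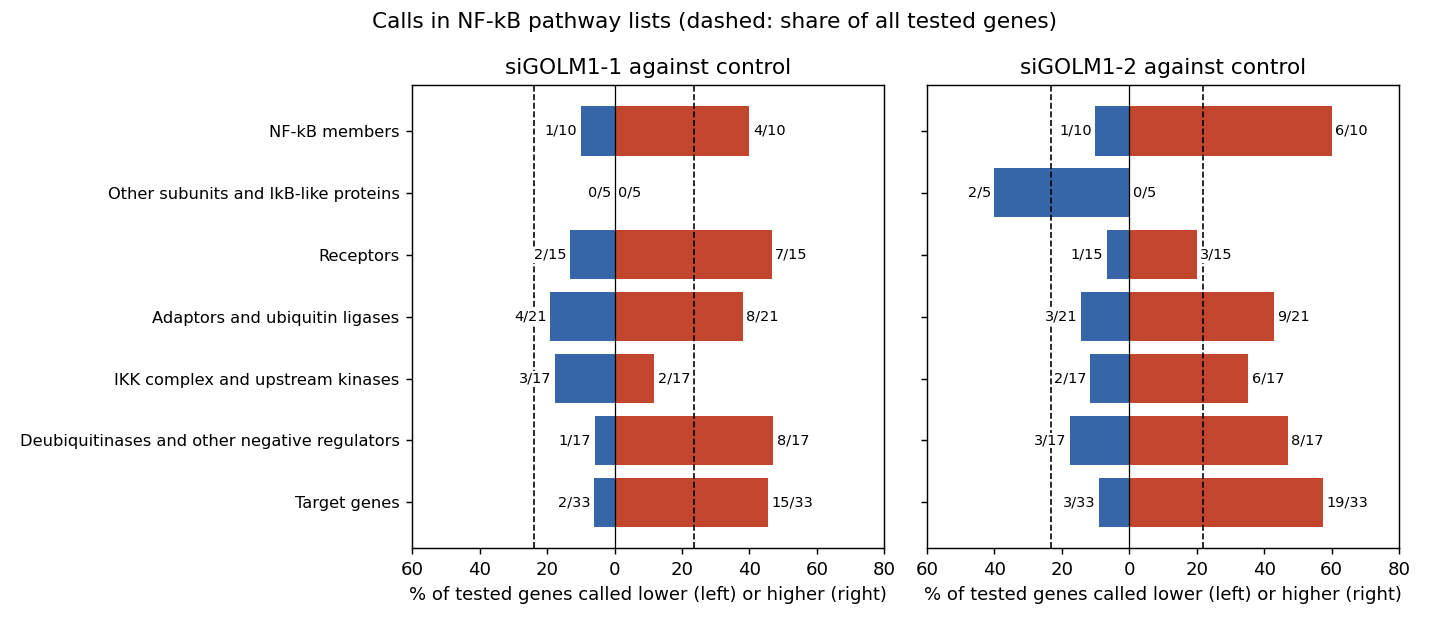
Percent of the tested genes of each list called higher (right of 0) or lower (left of 0) at an edgeR adjusted p under 0.05 with siGOLM1-1 and siGOLM1-2 against control, with the number called over the number tested; dashed lines are the shares of all tested genes. The 10 members were called higher at 4 of 10 and 6 of 10, and target genes at 15 of 33 and 19 of 33.

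Compared directly, 27.9% of all genes were higher and 26.5% lower. Of the 17 genes of the IKK complex and upstream kinases, 10 were lower with siGOLM1-1 than with siGOLM1-2 and 3 higher (median -0.29). IRAK4 was at -0.87, MAP3K3 at -0.95 and MAP3K8 at 1.29. Of the target genes 14 were lower and 9 higher (median -0.39), and PLAU (2.41), GADD45B (1.41) and EFNA1 (1.27) were the leading genes by p, all higher with siGOLM1-1. Receptors had 4 in each direction, IL1RAP at 1.80, IL1R1 at 0.54 and TNFRSF10B at -0.60. Adaptors and ubiquitin ligases had 3 higher and 6 lower, BIRC2 at 0.76, TRAF5 at -0.91 and RNF31 at -0.49. Negative regulators had 6 higher and 4 lower, N4BP1 at 1.05, NLRC5 at -0.99 and ZC3H12A at 0.99. COMMD1 (0.34) and BCL3 (0.30) were the 2 higher genes of the list of other subunits and IkB-like proteins. The member BIRC3 and its paralog BIRC2 were called in opposite directions between the siRNAs, at -1.92 and 0.76.

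The authors' deposited table of their own test gave the same call as edgeR for 20 of 20 member values against control, with log2 fold changes that differed by at most 0.0213. For RELB the authors' deposited table had 1.84 with siGOLM1-1 and 1.58 with siGOLM1-2.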

How the data were processed

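RNA of 12 A549 libraries (4 per group) was sequenced from paired ends after stranded mRNA library preparation, per the labels' protocols. The submitters' processing notes name bcl2fastq 2.20, STAR 2.7.3, the build hg19 and DESeq2 1.24.0; which counter, annotation and strand option were used is not given in the sources used here. The deposited table holds raw counts per gene. The authors' result tables give, per the file headers, the normalised signal averaged over libraries, log2 fold changes and their standard errors, the test score, the p-value and its adjusted form; they were used only to compare calls.

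From the counts, genes were kept with filterByExpr (17532 of 57773), scaled with TMM and fitted with edgeR 4.0.16 in R 4.3.3 as a robust quasi-likelihood model of all 12 libraries (9 residual degrees of freedom, common biological coefficient of variation 0.146), with Benjamini-Hochberg adjustment over all genes. Library totals were 41.6 M to 71.3 M counts. Alternatives were DESeq2 1.42.0, other scalings and filters, a replicate block, fits of only the groups compared, either control pair and each library left out. The main edgeR fit was tested on simulated counts for siGOLM1-1 against control alone, without control pairs or an outlying library. The other comparisons, the alternatives and the motif search were not tested in this way. Named genes of a list are the 3 with the smallest p per comparison; others named beside a member are given for its role and were picked after values were seen. The members and lists were chosen with earlier results of these data known. IL8 and FAM105B were the symbols used for CXCL8 and OTULIN.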

Additional observations from a re-analysis of the deposited data

Results flagged for a closer look

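In groups of 4 libraries, the highest or lowest library stood apart from the others by Dixon's 95% criterion in 5 of the 30 member groups examined. These member groups share the same 12 libraries and are not independent, so no rate by chance is set beside the count. The share over all genes is not given. In siGOLM1-2, replicate 4 stood apart for NFKB2 (135 CPM, the others 78.7 to 85.3), RELB (48.7 CPM, the others 23.0 to 26.8), TNFAIP3 (35.6 CPM, the others 14.5 to 16.4) and BIRC3 (118 CPM, the others 51.7 to 58.4). In the control, replicate 4 stood apart for NFKB1 (35.3 CPM, the others 36.5 to 36.8), a gap of about 1 CPM in a group with a small range.

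The effects of the siRNAs differed from each other by the direct edgeR test for 7 members, beside 54.4% of all genes tested. As log2 differences of siGOLM1-1 minus siGOLM1-2 these were -0.23 for NFKB1, -0.42 for RELA, -0.68 for NFKBIB, -0.97 for NFKBIE, 1.14 for NFKBIZ, -0.98 for TNFAIP3 and -1.92 for BIRC3. In NFKBIZ the siRNAs lay on opposite sides of the control, each past the test.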

How the results depend on the processing

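Over 21 alternatives, 573 of 630 member values kept their direction and side of the threshold, 22 lost a call, 20 gained one and 15 changed sign. The number of members called lower with siGOLM1-1 (1) was 3 with library totals alone, 2 when genes needed 1 CPM in 4 or more libraries, 2 with the replicate block, 0 against control replicates 1 and 2 alone (edgeR; 1 at an unadjusted p under 0.05, and DESeq2 on all libraries gave 1), 3 against replicates 3 and 4 alone, and 1 to 3 with a library left out. That lower with siGOLM1-2 (1) was 2 against control replicates 3 and 4 alone, and that higher between the siRNAs (1) was 1 to 2 with a library left out (2 without siGOLM1-2 replicate 4). With a library left out, 3 to 4 were higher with siGOLM1-1, 5 to 6 with siGOLM1-2, and 4 to 7 lower between the siRNAs. Against control replicates 1 and 2 alone, 5 were higher with siGOLM1-1, and NFKBIA and TNFAIP3 were also called higher with siGOLM1-2. Against replicates 3 and 4 alone, 3 were higher with siGOLM1-1, and BIRC3 lost its call with siGOLM1-2.

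Changes of sign, with causes not tested, were in NFKBIA with siGOLM1-1 (-0.31 against control replicates 3 and 4 alone, -0.037 and -0.03 without control replicate 1 or 2, up to 0.31 with another library left out) and with siGOLM1-2 (0.48 against control replicates 1 and 2 alone, 0.02 and 0.025 without control replicate 3 or 4, down to -0.32 with another left out). TNFAIP3 was at 0.13 with siGOLM1-1 against control replicates 1 and 2 alone, and with siGOLM1-2 at -0.32 against replicates 3 and 4 alone, -0.01 without control replicate 1 and -0.20 without siGOLM1-2 replicate 4, up to 0.46 with another left out. RELA with siGOLM1-2 was at 0.057 with library totals, 0.12 against control replicates 1 and 2 alone, 0.02 and 0.02 without control replicate 3 or 4, and 0.031 without siGOLM1-2 replicate 3, down to -0.11 with another left out. Library totals shifted the median of all genes to -0.06, 0.07 and -0.12 in the 3 comparisons.

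The labels do not say whether replicate numbers pair the samples across groups. Same-numbered libraries correlated at -0.20 to 0.35 in their deviations, above 0.1 in 3 of 12 pairs. Of 24 checks, 8 were best with the own number. Within the control, libraries on opposite sides of its division correlated at -0.70 to -0.66. This division weighs on the deviations, so the check cannot decide whether the numbers pair the samples. With the replicate block, NFKBIB became called with siGOLM1-1 (edgeR adjusted p = 0.019) and NFKB2 between the siRNAs (-0.43, edgeR adjusted p = 0.0366); no other member call changed. Without the low-count filter, BIRC3 with siGOLM1-2 (edgeR adjusted p = 0.119), NFKB2 with siGOLM1-1 (0.0888), and NFKB1 (0.0585) and TNFAIP3 (0.145) between the siRNAs lost their calls; with DESeq2, TNFAIP3 between the siRNAs did (0.0824).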
